A study of Mus musculus with 20 samples.

Results

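Immediate early genes are switched on within minutes of a stimulus, from factors already present in the cell and without new protein synthesis. Kinases of the MAPK and calcium or cAMP pathways act on serum response factor with its ternary complex partners and on CREB, which sit at the promoters of these genes. Many of the products are transcription factors whose messenger RNA and protein are short lived, and in skeletal muscle they are known to rise with contraction, stretch and injury. The 10 genes described here are Fos and Fosb, which pair with Jun proteins to form the AP-1 factor, Jun, Junb and Jund, the Egr1, Egr2 and Egr3 zinc finger factors, Atf3, a stress-responsive member of the ATF/CREB family, and Ier2, a small nuclear regulator. They were chosen by symbol, and all 10 were found among the 55401 genes of the count matrix.

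Bulk RNA was sequenced from the gastrocnemius, the large calf muscle, of 20 C57BL/6 mice aged 24 months. Of these, 10 HK-treated mice were given HK (Haenkenium, a standardised extract of Salvia haenkei) at 0.5 mg/kg per day in drinking water for 4 months, from 20 months of age, and 10 age-matched mice were left untreated. Each group held 5 males and 5 females, of which 8 mice belonged to batch 1 and 12 to batch 2, with equal numbers per group in each batch. The batches are taken to be the study's separate sequencing experiments, and a cohort of mice cannot be told apart from its sequencing run. The muscles were frozen at once in liquid nitrogen. Young mice were not analysed here.

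Total counts per mouse ran from 13900180 to 30469644, and in batch 2 from 13900180 to 17951683. Muscle fibre markers summed to between 1.33e+05 and 1.81e+05 CPM (counts scaled to the total of the library) in every library, and none of the marker lists for 9 cell types held a gene at 0 in all mice. HK-treated Male_3, of batch 2, stood apart in the genes described here, so each comparison was also made without that mouse. It held the highest level of 7.82% of all genes tested. Counts in bulk tissue do not tell fewer cells of a type from less RNA per cell.

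Of the 10 genes, 8 had enough counts to be tested and 2 did not. Jund had 2 counts and Egr2 had 9 counts over all mice together. Jund was at 0 in 18 mice and Egr2 in 14. A count of 0 allowed up to 0.0985 to 0.216 CPM of the unadjusted library total, depending on its depth (3 counts, counting error only). Of the exon bases of Jund, 52.6% also lie in the opposite-strand gene Gm11175, itself with 1 count in all mice, so the value of Jund cannot be read as absence of its RNA. Jun shares 7.28% of its exon bases with the antisense gene Junos (2038 counts in all mice) and Junb 7.52% with Prdx2 (35028 counts), and whether counting used strand was not given. Fos, Jun, Junb, Egr1, Atf3 and Ier2 were above the filter's cut-off of 0.588 CPM, also of the unadjusted library total, in all 20 mice. Fosb passed it in 1 of 8 mice of batch 1 and 12 of 12 of batch 2, and Egr3 in 2 of 8 and 9 of 12, so both entered the test mainly through batch 2.

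The start regions of 4 tested members and of Egr2 are shown because they held matches to short elements known from this class of gene. RefSeq windows (GRCm38.p6, from 250 bases before to 50 after the first transcribed base, which is position 0) were at hand for 7 of the 10 members, 11 windows in all. Egr1, Egr3 and Ier2 had no window. Capitals mark matches on either strand to a CArG box (the serum response factor site), to TGACG (the core of the cAMP response element), to TATAAA or TATATA, to TGAGTCA or TGACTCA (AP-1) and to GCGTGGGCG or GCGGGGGCG (EGR). The windows lie at chr12:85473640-85473939 on the plus strand for Fos, at chr7:19309996-19310295 on the minus strand for Fosb, at chr8:84978699-84978998 on the minus strand for Junb, at chr1:191183284-191183583 on the minus strand for Atf3 and at chr10:67537619-67537918 on the plus strand for Egr2.
Fos: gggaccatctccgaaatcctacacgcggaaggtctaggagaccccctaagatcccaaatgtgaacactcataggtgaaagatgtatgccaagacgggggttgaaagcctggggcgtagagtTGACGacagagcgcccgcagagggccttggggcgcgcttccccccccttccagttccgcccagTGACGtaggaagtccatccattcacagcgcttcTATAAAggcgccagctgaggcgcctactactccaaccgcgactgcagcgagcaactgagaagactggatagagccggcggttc
Fosb: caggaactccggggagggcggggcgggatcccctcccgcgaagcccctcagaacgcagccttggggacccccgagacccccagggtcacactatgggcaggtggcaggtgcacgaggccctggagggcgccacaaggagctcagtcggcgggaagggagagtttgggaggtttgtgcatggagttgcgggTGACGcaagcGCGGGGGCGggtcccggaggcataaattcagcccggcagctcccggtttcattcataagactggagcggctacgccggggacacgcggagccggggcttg
Junb: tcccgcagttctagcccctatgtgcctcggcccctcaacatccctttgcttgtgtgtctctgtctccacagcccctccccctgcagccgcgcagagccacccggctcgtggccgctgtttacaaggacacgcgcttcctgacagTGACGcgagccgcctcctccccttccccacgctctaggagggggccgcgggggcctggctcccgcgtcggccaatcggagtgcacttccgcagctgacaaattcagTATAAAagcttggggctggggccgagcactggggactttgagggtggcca
Atf3: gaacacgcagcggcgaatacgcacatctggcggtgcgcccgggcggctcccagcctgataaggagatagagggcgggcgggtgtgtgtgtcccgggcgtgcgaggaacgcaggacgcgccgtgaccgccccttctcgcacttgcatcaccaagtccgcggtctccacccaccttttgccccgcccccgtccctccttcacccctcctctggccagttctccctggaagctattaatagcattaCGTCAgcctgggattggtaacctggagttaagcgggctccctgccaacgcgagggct
Egr2: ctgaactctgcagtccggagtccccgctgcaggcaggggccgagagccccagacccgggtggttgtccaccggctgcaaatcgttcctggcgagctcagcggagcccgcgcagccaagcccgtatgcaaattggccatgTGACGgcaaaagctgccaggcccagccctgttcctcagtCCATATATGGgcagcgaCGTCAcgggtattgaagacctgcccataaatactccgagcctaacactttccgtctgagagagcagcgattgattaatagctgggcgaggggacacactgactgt
Fos held TGACG at positions -129 and -66 and TATAAA at -33. Fosb held TGACG at -60 and an EGR match at -50, Junb TGACG at -106 and TATAAA at 0, and Atf3 a TGACG match read on the opposite strand at -7. Of several Egr2 windows, the one shown held a CArG box at -72 between TGACG matches at -111 and -55. Another Egr2 window, at chr10:67537316-67537615, held a CArG box alone. The windows of Jun and Jund and the Egr2 window at chr10:67535249-67535548 held none of these motifs. Among all 32851 windows of the table, 1.63% held a CArG box, 20.8% TGACG, 17.1% TATAAA or TATATA, 5.2% an AP-1 match and 3.47% an EGR match. A match is a run of letters and does not show that a factor was bound.

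Levels of different genes were compared per length, as TPM, in which counts are scaled by the summed exon length of the gene and then by library. Over the 20 mice the median TPM was 88.1 for Jun, 38.7 for Atf3, 16.6 for Junb, 16.4 for Fos, 9.33 for Egr1, 8.17 for Ier2, 0.629 for Fosb and 0.434 for Egr3. Jun was above Atf3 in 17 of 20 mice, Fos above Egr1 in 19 and Ier2 above Fosb in 20. Junb and Fos could not be ordered, as Junb was the higher of both in 10 of 20 mice, in 7 of 8 of batch 1 but 3 of 12 of batch 2. Likewise Egr1 was above Ier2 in 0 of 8 mice of batch 1 and in 10 of 12 of batch 2, and Fosb above Egr3 in 0 of 8 and 10 of 12. The order of the family thus differed by batch, with median TPM in batch 1 of 69.1 for Jun, 7.96 for Junb, 6.37 for Ier2, 5.91 for Atf3, 5.24 for Fos and 3.70 for Egr1, and in batch 2 of 101.2 for Jun, 80.1 for Atf3, 61.9 for Fos, 41.6 for Junb, 15.7 for Egr1 and 11.4 for Ier2.

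Fos, the partner of Jun in AP-1, is described here mouse by mouse. In batch 1 its level was 7.07, 1.61, 2.85 and 2.77 CPM in the untreated mice Male_1, Male_2, Female_1 and Female_2, and 3.44, 5.56, 7.41 and 6.26 CPM in the HK-treated mice of the same names. In the untreated mice of batch 2 it was 12.5, 13.6 and 14.5 CPM in Male_3, Male_4 and Male_5 and 52.8, 213.9 and 144.0 CPM in Female_3, Female_4 and Female_5. In the HK-treated mice of batch 2 it was 316.8, 24.9 and 58.7 CPM in the males and 50.4, 248.2 and 13.4 CPM in the females, in the same order. Every mouse of batch 2 was above every mouse of batch 1, and within batch 2 both treatment groups held low and high mice. Within batch 1 the highest mouse exceeded the lowest 4.59-fold, and within batch 2 25.3-fold.

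Junb, which also dimerises with Fos proteins, was measured at 6.14, 12.2 and 14.5 CPM in the untreated males of batch 2 and at 203.5, 31.5 and 39.9 CPM in the HK-treated males, Male_3 to Male_5. The females of batch 2 stood at 37.1, 34.3 and 57.1 CPM untreated and at 34.5, 86.6 and 16.9 CPM with HK, Female_3 to Female_5. The 3 HK-treated males of batch 2 were thus above the 3 untreated males of that batch, and the females overlapped. The share of all genes that separate these males in the same way is not given here. The HK difference of Junb was not called as differing between the sexes (adjusted p = 0.998, quasi-likelihood F-test of edgeR). In batch 1 Junb was between 3.14 and 12.01 CPM.

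Egr1 is an early growth response factor with targets in growth and matrix genes. It was measured at 411.6 CPM in HK-treated Male_3, 116.1 in untreated Female_4, 89.9 in HK-treated Female_4 and 75.9 in HK-treated Male_5. The other 8 mice of batch 2 lay between 11.8 and 34.6 CPM, and the mice of batch 1 between 1.85 and 7.64 CPM. Its relative Egr3 reached 8.83 CPM in HK-treated Male_3 and had a median of 1.14 CPM in batch 2 and 0.204 CPM in batch 1.

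Atf3 had a lowest, median and highest level of 1.84, 36.6 and 73.1 CPM in the untreated mice and of 2.83, 18.99 and 213.5 CPM in the HK-treated mice. The medians of Atf3 stood in the reverse order of its means, which were 36.0 ± 29.1 untreated and 51.9 ± 67.1 with HK (SD, n = 10 each). Fosb ran from 0 to 36.9 CPM untreated and from 0.0545 to 45.6 CPM with HK, and Ier2 from 2.54 to 21.1 and from 2.61 to 31.8 CPM. Jun varied least, from 57.2 to 175.3 CPM untreated and from 65.2 to 207.3 CPM with HK. In each of the 8 members the treatment groups overlapped.

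**Figure D1:**
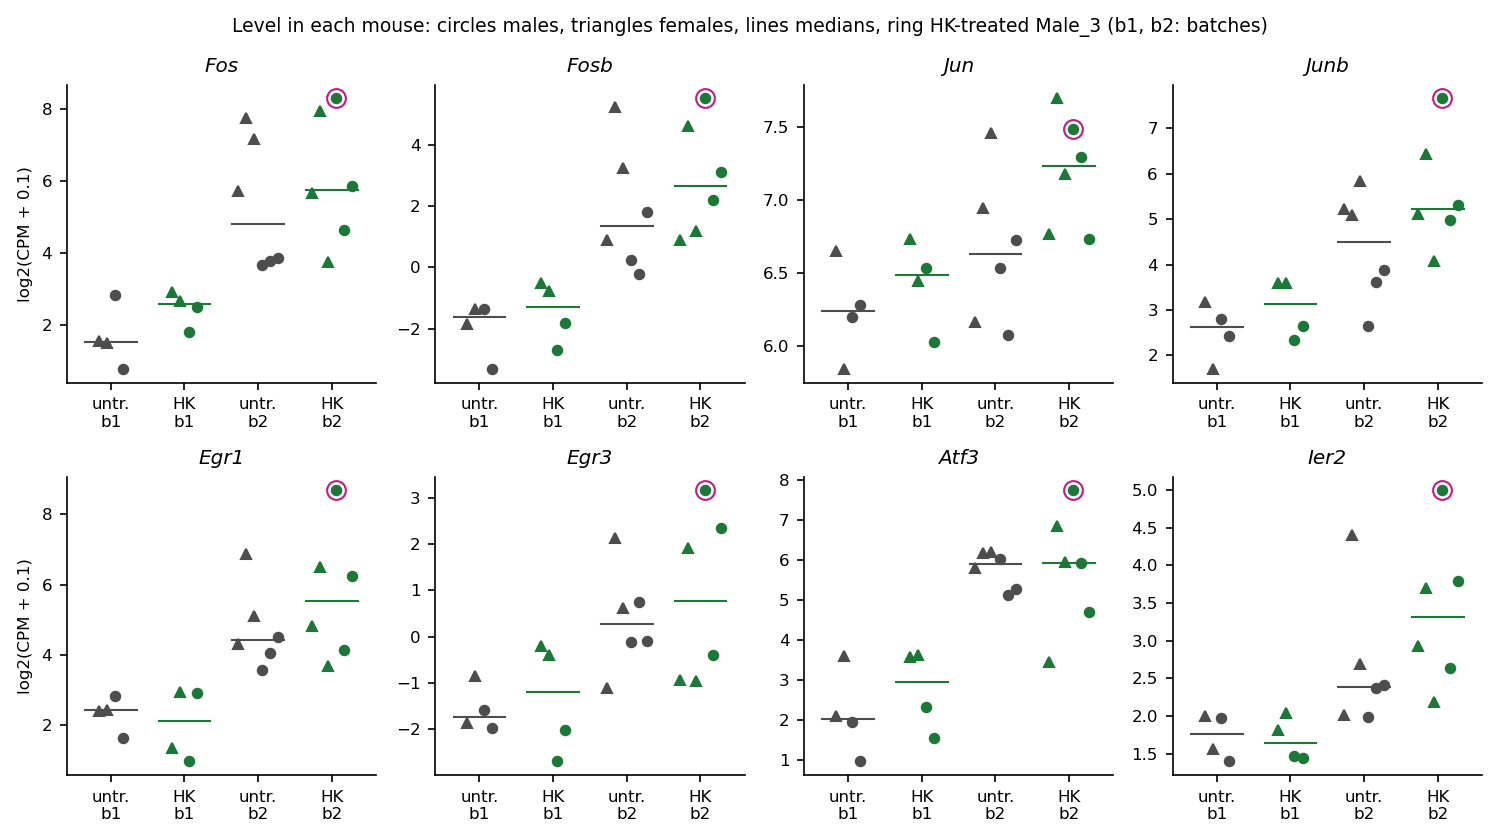
Level of the 8 tested members in each mouse, as log2(CPM + 0.1), by treatment group (grey untreated, green HK-treated) and batch (b1, b2). Circles are males, triangles females and lines medians, and the ring marks HK-treated Male_3, which is the highest mouse in 7 of the 8 panels and the second highest for Jun. The vertical axes differ between panels.

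The high mice were largely the same from gene to gene. Among the 12 mice of batch 2, HK-treated Male_3 had a mean rank over the 8 members of 1.12 (1 being the highest), HK-treated Female_4 of 2.62, untreated Female_4 of 3.62 and untreated Female_5 of 4.25. The lowest mean ranks were those of untreated Male_3 at 10.2 and untreated Male_4 at 9.88. Of the 4 highest mice 2 were HK-treated and 2 untreated.

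HK-treated and untreated mice were compared to ask whether the extract changed the expression of these genes. No member passed the test, and neither did any other gene (0% of 12923 genes at a Benjamini-Hochberg adjusted p under 0.05, quasi-likelihood F-test of edgeR, accounting for batch and sex). Before adjustment, p was under 0.05 for 355 genes with higher (2.75%) and 431 with lower levels (3.34%) under HK, and DESeq2's Wald test called 7 genes after adjustment, none of them a member. All 8 members had higher fitted levels in HK-treated mice, with a log2 fold change of 0.90 at the median, where that of all tested genes was 0.0024. At that unadjusted limit 2 of the 8 were higher and 0 lower, namely Junb (log2 fold change 1.15 ± 0.45, SE, p = 0.019) and Jun (0.38 ± 0.16, p = 0.028), with an adjusted p of 0.799 for each. For Fos the log2 fold change was 0.92 ± 0.62 with an adjusted p of 0.823, for Fosb 1.12 ± 0.83 with 0.831 and for Egr1 0.88 ± 0.65 with 0.830. Egr3, Atf3 and Ier2 gave 0.93 ± 0.59, 0.57 ± 0.41 and 0.46 ± 0.37.

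The size of these differences turned on single mice. Without HK-treated Male_3 the median log2 fold change of the 8 members was 0.33, with a range from 0.09 for Atf3 to 0.64 ± 0.30 for Junb, and Junb alone had an unadjusted p under 0.05 (1 of 8, beside 2.55% of 12998 genes that were higher at that limit). Without untreated Female_4 the median was 1.20 and 5 of the 8 members had an unadjusted p under 0.05, beside 3.6% of 12980 genes that were higher at that limit. With limma voom on all 20 mice the median was 0.52, and with limma's sample quality weights 0.18. Fosb's value moved most, from a log2 fold change of 0.34 without HK-treated Male_3 to 2.01 without untreated Female_4. Jun moved least, between 0.32 and 0.48. No member was called in either case.

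**Figure D2:**
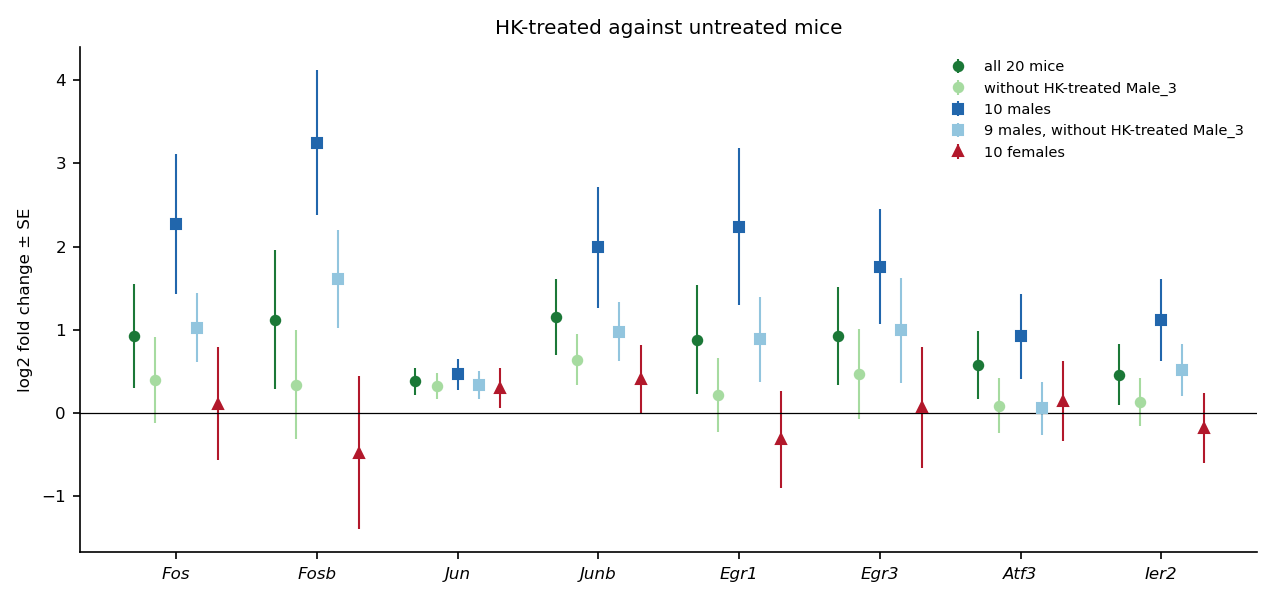
Log2 fold change of HK-treated over untreated mice (vertical axis, bars show the SE) for the 8 tested members, fitted over all 20 mice, without HK-treated Male_3, in the males with and without that mouse and in the females. Leaving out HK-treated Male_3 lowered all 8 values, and the values of the females lay between -0.47 for Fosb and 0.41 for Junb. No value shown had an adjusted p under 0.05.

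Within batches the direction was less even. In batch 1, where 6 members could be tested, 4 were higher with HK and 2 lower, with log2 fold changes from -0.11 (Egr1) to 0.67 (Fos). In batch 2 all 8 were higher, by a median of 0.999, and without HK-treated Male_3 7 were higher and Atf3 stood at -0.09, with a median of 0.41. The difference between batches was not called for any member (adjusted p = 0.9997 for each, treatment by batch interaction).

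The sexes were compared as the study had 5 males and 5 females in each group. In males all 8 members were higher with HK by a median log2 fold change of 1.88, and 7 of them had an unadjusted p under 0.05, but none an adjusted p below 0.674. At that limit 3.62% of 12829 genes were higher in males. Fosb differed most, by 3.25 ± 0.87, then Fos by 2.27 ± 0.84 and Egr1 by 2.24 ± 0.94. Without HK-treated Male_3 the median in males was 0.93, with 3 members at an unadjusted p under 0.05, beside 2.32% of 13002 genes, and adjusted p values from 0.779. In females the median was 0.09, with 5 members higher and 3 lower and an adjusted p of 0.9999 for each. The test of the difference itself called 0 of 13626 genes, of which 476 had an unadjusted p under 0.05 (3.49%, edgeR, the tool run for this term). Its lowest unadjusted p among the members was 0.017, for Fosb (difference in log2 fold change, males minus females, 3.64 ± 1.40), followed by 0.034 for Egr1 (2.58 ± 1.13), each with an adjusted p of 0.998. Without HK-treated Male_3 that difference was 2.14 ± 1.29 for Fosb and 1.21 ± 0.87 for Egr1, and 0 members had an unadjusted p under 0.05. Between males and females, taken over both treatments, 0 of the 8 members were called (adjusted p 0.371 to 0.997, edgeR), beside 16.8% of all genes tested.

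The batches differed far more than the treatment groups. All 8 tested members were higher in batch 2 than in batch 1 (adjusted p from 4.06e-05 to 0.0078, edgeR), with a log2 fold change of 3.10 at the median, where that of all tested genes was 0.012, while 19% of genes were called higher and 17.6% lower. Fosb was 45.6-fold higher, Fos 19.8-fold, Egr1 12.4-fold and Atf3 10.9-fold. Egr3 was 6.72-fold and Junb 6.004-fold higher, Ier2 3.05-fold and Jun 1.53-fold. Since Fosb and Egr3 passed the filter mainly through batch 2, their calls carry no weight of their own, and 6 of 6 members above the cut-off in all mice were called. For Fos and Egr1 every mouse of batch 2 was above every mouse of batch 1, as for 1.14% of all genes tested. The same held for Fosb, which passed the filter mainly through batch 2.

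The difference between batches did not rest on HK-treated Male_3. Without that mouse the members above the cut-off in all mice were again called higher, beside 18.7% of genes. They ran from 1.48-fold for Jun to 12.6-fold for Fos, with adjusted p from 9.17e-06 for Atf3 to 0.0128 for Jun (edgeR). Fosb (30.8-fold) and Egr3 (5.39-fold) were called too. Both passed the filter mainly through batch 2, so their calls carry no weight of their own. In the untreated mice taken alone, Jun (log2 fold change 0.43, adjusted p = 0.235) and Ier2 (1.13, adjusted p = 0.101) did not pass the test in edgeR, and in the HK-treated mice alone Egr3 did not (2.69, adjusted p = 0.106). Jun also missed it in males and in females alone, and Egr3 and Ier2 in females alone.

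**Figure D3:**
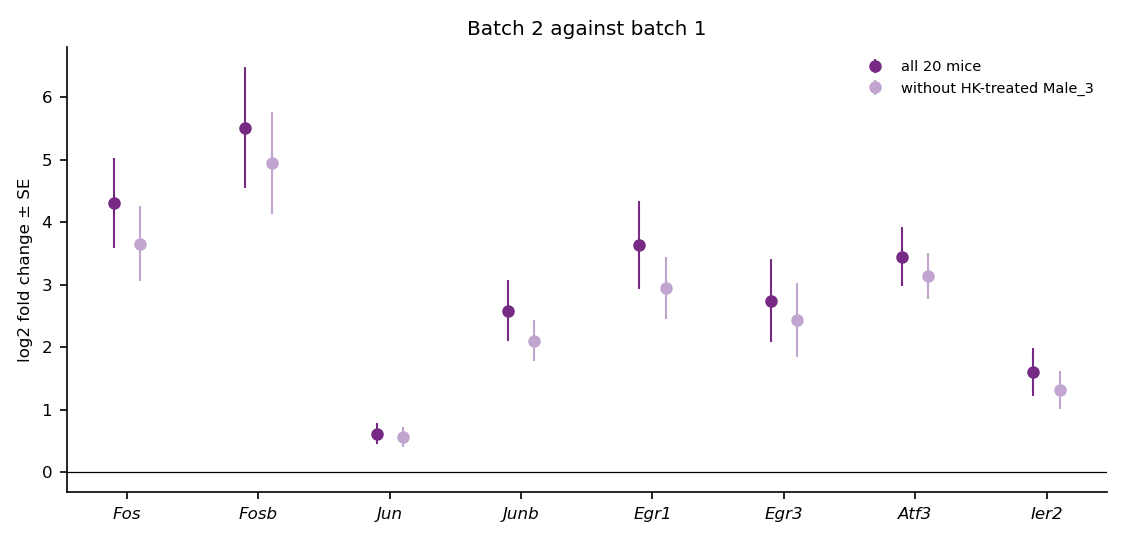
Log2 fold change of batch 2 over batch 1 (vertical axis, bars show the SE) for the 8 tested members, over all 20 mice and without HK-treated Male_3. All values are above 0, from 0.56 for Jun to 5.51 for Fosb. Fosb and Egr3 passed the filter mainly through batch 2.

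Markers of some other cell types were also called between batches, where 19% of all genes were called higher and 17.6% lower in batch 2. Macrophage, fibroblast and neutrophil and red cell markers were called most often. Of the macrophage markers 7 of 8 were called higher in batch 2, and their summed level ran from 19.1 to 66.0 CPM in batch 1 and from 59.8 to 285.3 CPM in batch 2. All 6 fibroblast markers were called higher, with sums of 161.3 to 405.2 and 288.5 to 1370 CPM, as were all 5 tested neutrophil and red cell markers (of 8 listed), with sums of 31.0 to 98.5 and 62.4 to 406.5 CPM. Endothelial markers were called higher for 3 of 6 (sums of 74.9 to 230.9 and 134.5 to 257.0 CPM), smooth muscle and pericyte markers for 3 of 6 (123.8 to 326.1 and 208.3 to 419.8 CPM), adipocyte markers for 2 of 5 (7.67 to 87.3 and 15.3 to 144.5 CPM) and satellite cell markers for 1 of 4 tested (6.93 to 11.6 and 7.95 to 17.5 CPM). Nerve and Schwann cell markers were called for 0 of 5 (45.3 to 111.9 and 20.9 to 126.7 CPM), and muscle fibre markers for 3 higher and 1 lower of 10. The part of these cells in the batch difference of the immediate early genes was not tested. Between HK-treated and untreated mice no marker was called. HK-treated Male_3 ranked 1 of 20 in the satellite cell sum, 3 in the macrophage and fibroblast sums and between 6 and 11 in the other lists.

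After treatment, batch and sex were accounted for, the members still varied together from mouse to mouse. Over the 28 pairs of the 8 tested members Pearson's r of the residual log2 CPM ran from 0.29 to 0.92 with a median of 0.63, and Spearman's rho from 0.10 to 0.84. Of the 28 pairs, 17 had an adjusted p under 0.05 by Pearson's r and 17 by Spearman's rho (two-sided permutation within batch and sex, 100000 resamples, adjusted over the 28 pairs). Pairs of other genes were not tested, so the share among them is not known. The tightest pair was Egr1 and Ier2, at r = 0.92 (permutation p = 1e-05, the smallest that could be had, adjusted 0.00028) and rho = 0.84 (permutation p = 0.0001, adjusted 0.00093), and r was 0.83 without the 2 mice farthest from the median of Egr1. Fos and Fosb followed each other at r = 0.85 and rho = 0.80 (permutation p = 3e-05 for each, adjusted 0.00042 and 0.00084), and r was 0.78 without the 2 farthest mice.

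The lowest correlations were those with Jun and Atf3. Jun and Egr3 gave r = 0.29 (permutation p = 0.258, adjusted 0.258) and rho = 0.34 (permutation p = 0.201, adjusted 0.245), and Junb and Atf3 gave r = 0.33 (permutation p = 0.182, adjusted 0.204) and rho = 0.10 (permutation p = 0.672, adjusted 0.672). Without the 2 farthest mice r was 0.24 for the former pair and -0.0027 for the latter. Without HK-treated Male_3, 10 of the 28 pairs had an adjusted p under 0.05, the median r was 0.51, and Egr1 with Ier2 remained at 0.86. Within batch 2 r had a median of 0.72 over its 12 mice and of 0.65 without HK-treated Male_3. In the 8 mice of batch 1 r ran from -0.54 to 0.97 with a median of 0.39.

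**Figure D4:**
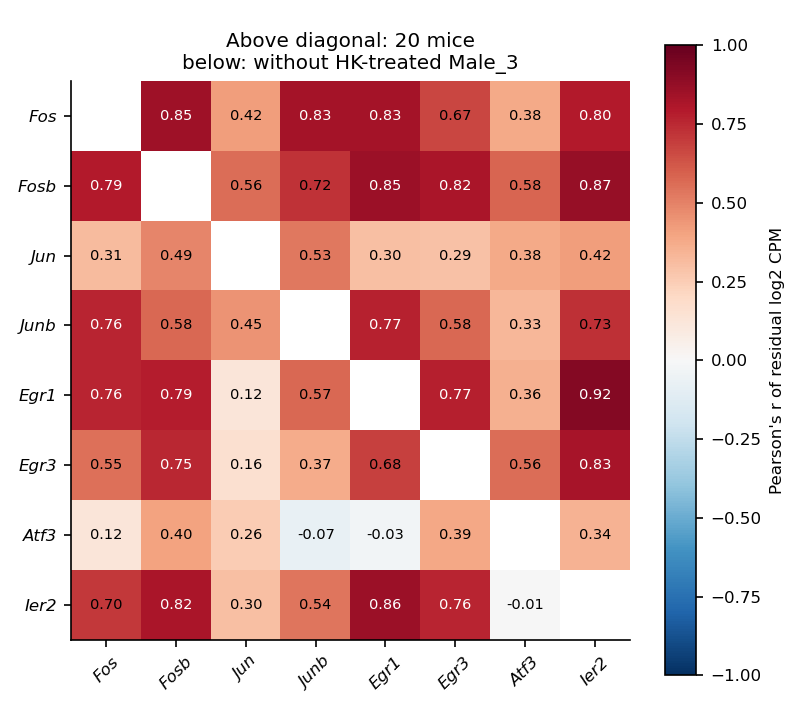
Pearson's r between the residual log2 CPM of the 8 tested members, after treatment, batch and sex, with all 20 mice above the diagonal and without HK-treated Male_3 below it. Colour runs from -1 (blue) to 1 (red), and the lowest values are those with Jun and Atf3.

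Outside the 10 members, the genes whose residuals were most like the members' mean standardised residual over the 20 mice were Nr4a2 (Pearson's r = 0.88, Spearman's rho = 0.88), Klf4 (0.88 and 0.85), Btg2 (0.88 and 0.74), Apold1 (0.87 and 0.82), Errfi1 (0.85 and 0.83) and Otud1 (0.85 and 0.79). The median r of all genes was 0.0067. Nr4a2 is an orphan nuclear receptor, Klf4 a zinc finger factor, Btg2 an antiproliferative regulator and Errfi1 an inhibitor of the EGF receptor. Without HK-treated Male_3 the 6 most like were Wdr81 (0.89 and 0.89), Nxt2 (0.79 and 0.72), Nr4a2 (0.78 and 0.76), Klf4 (0.77 and 0.78), Esr1 (0.76 and 0.79) and Lrrc38 (0.75 and 0.71), so that Nr4a2 and Klf4 were named in both. These correlations were picked as the highest of all genes and are given without a p.

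The wider class was read from a list of 45 other immediate early and early response genes, of which 41 were tested. The list was chosen with earlier results of these data known. With HK 36 of the 41 had higher fitted levels, and 0 were called. At an unadjusted p under 0.05, 22 were higher and 0 lower, beside 2.75% higher and 3.34% lower of all genes tested. The median log2 fold change of the 41 was 0.50, where that of all tested genes was 0.0024. Without HK-treated Male_3, 15 of the 41 were higher at that limit, beside 2.55% of 12998 genes, and the median was 0.31. The 6 with the lowest p were Per1, a clock gene that also responds to cAMP and glucocorticoids (0.99 ± 0.22, adjusted p = 0.448, edgeR), Cebpb (0.85 ± 0.20), Myc (0.87 ± 0.24), Nr4a2 (2.16 ± 0.62), Cebpd (1.04 ± 0.31) and Plk3, a polo-like kinase (1.18 ± 0.38). Without HK-treated Male_3 they stood at 0.88, 0.80, 0.61, 1.47, 0.97 and 0.79, in the same order. Between the batches 32 of the 41 were called higher and 2 lower, with a median of 1.30, beside 19% higher and 17.6% lower of all genes. The 41 genes vary together across the same mice, so their count is not a count of separate observations.

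**Figure D5:**
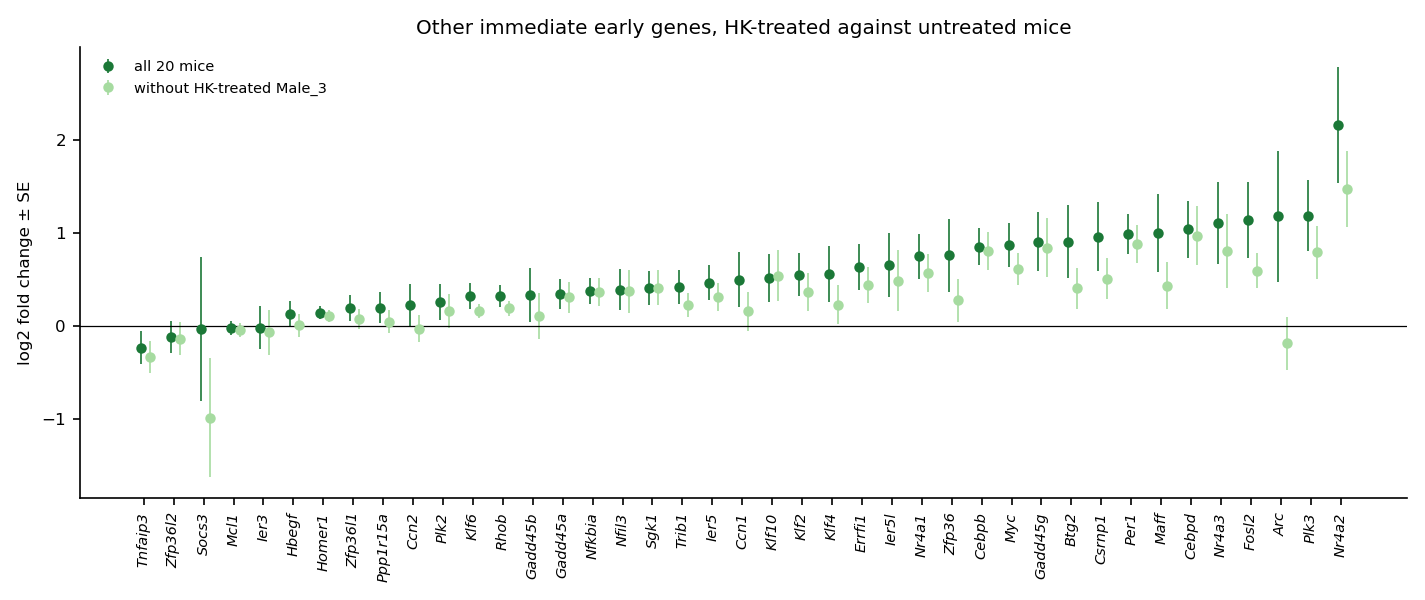
Log2 fold change of HK-treated over untreated mice (vertical axis, bars show the SE) for 41 other immediate early genes, ordered by the value over all 20 mice (dark green), with the value without HK-treated Male_3 beside it (light green). Most points lie above 0, with Nr4a2 at 2.16 and 1.47, and none had an adjusted p under 0.05.

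Other genes of the pathway were read in the same way, beside the shares of all genes. At the unadjusted limit with HK these shares were 2.75% higher and 3.34% lower. Between batches 19% of all genes were called higher and 17.6% lower. Among 10 phosphatases that switch off MAP kinases, 0 were past the unadjusted limit with HK in either direction. The 3 with the lowest p were Dusp1 (log2 fold change 0.49 ± 0.25), Dusp2 (0.37 ± 0.22) and Dusp6 (-0.19 ± 0.12), and 3 of the 10 were called higher in batch 2 and 0 lower. Of 32 upstream kinases and transcription factors, 1 was higher and 1 lower with HK at the unadjusted limit. Mapk3, the kinase ERK1, gave -0.17 ± 0.07, Rps6ka1, the ERK-activated kinase RSK1, 0.22 ± 0.10 and Elk3, a ternary complex factor, -0.36 ± 0.18, while 3 of the 32 were called higher and 8 lower in batch 2. Of 12 AP-1 partners and Egr corepressors 10 were tested, with 1 higher and 0 lower at the unadjusted limit with HK. Maf gave 0.33 ± 0.11 and Mafk 0.31 ± 0.17, and 4 of the 10 were called higher and 2 lower in batch 2. None of these genes was called between HK-treated and untreated mice.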

How the data were processed

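The members were 10 symbols mapped to Ensembl identifiers, in the gastrocnemius of 20 mice, and members and gene lists were chosen with earlier results of these data known. The authors aligned reads with STAR 2.6.1c in two-pass mode to GRCm38.p6 with GENCODE M25 and deposited raw counts per gene, without normalization. The counting tool, strand use and multimapping were not given in the sources used here. Symbols, lengths and positions came from GENCODE M21, an older release on the same build (55141 identifiers matched, and the unmatched held 0.00127% of counts).

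Counts were tested with edgeR 4.0.16 in R 4.3.3: TMM, filterByExpr by treatment group (12923 genes), the quasi-likelihood F-test with batch and sex as covariates, Benjamini-Hochberg adjustment over all genes. CPM and TPM came from the same libraries, log2 CPM with a prior count of 2. Correlations used Python 3.11.15. Alternatives used DESeq2 1.42.0 and limma 3.58.1, other filters and covariates, single batches or sexes, and each mouse left out. The fit was tested on simulated data, with an outcome that is not given here.

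Genes named are the 10 members, the 6 lowest p of the other immediate early genes, the 3 lowest of each other pathway list, and the 6 genes most like the members with and without HK-treated Male_3. The values of 1 gene so chosen are not reported here. Groups, sexes and replicates came from the labels. Batch coincided with the style of the library names, and the study names separate sequencing experiments without listing the mice of each. Libraries that shared treatment, sex and batch differed by 8.77 to 54.8 chi-square per degree of freedom, so all 20 entered as separate mice. Depth per mouse was 13900180 to 30469644 counts, and Jund, Egr2 and, in batch 1, Fosb and Egr3 had few.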

Additional observations from a re-analysis of the deposited data

Results flagged for a closer look

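A mouse was marked where its gap to the next mouse, divided by the range of its treatment group of 10, exceeded Dixon's 95% critical value. The matching rate of about 1 in 20 groups by chance holds for a single normal population. Here each group pooled both batches and both sexes in CPM, so that rate does not apply. In 16 groups (8 members, both treatments) 9 marks were made, which are not independent because the members vary together and each group spans both batches. HK-treated Male_3 was marked as the highest of its group for Egr1 (0.785), Ier2 (0.620), Junb (0.589), Fosb (0.473) and Atf3 (0.4661). Untreated Female_4 was marked as the highest of its group for Ier2 (0.794), Fosb (0.746), Egr1 (0.721) and Egr3 (0.650). One mouse of each treatment group was thus involved. None of 16 interaction terms of the members (treatment by sex and by batch) had an adjusted p under 0.05.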

How the results depend on the processing

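The members' difference between HK-treated and untreated mice was higher than 0 in 278 of 285 combinations of a member with an alternative fit. Most of these fits reused nearly the same mice, so the combinations are not separate observations. The 7 exceptions were Fosb with limma's sample quality weights (log2 fold change -0.16), Egr1 and Ier2 in batch 1 alone (-0.11 and -0.066), Fosb, Egr1 and Ier2 in females alone (-0.47, -0.31 and -0.18) and Atf3 in batch 2 without HK-treated Male_3 (-0.086). The median of the members ran from 0.33 (without HK-treated Male_3) to 1.20 (without untreated Female_4) over the mice left out, and was 0.52 with limma voom, 0.18 with its sample quality weights, 0.68 with no covariates and 0.09 in females against 1.88 in males alone. Members at an unadjusted p under 0.05 numbered 1 to 5 over the mice left out, 0 with no covariates, in batch 1 alone, in females alone and in batch 2 without HK-treated Male_3, 1 with quality weights and with the replicate block, and 7 in males alone. Genes called with HK numbered 0 to 1 over the mice left out (1 without HK-treated Female_1), 0 by limma voom and 7 by DESeq2's Wald test, none of them a member (Egr3 had no adjusted p there).

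Without a filter on low counts 502 genes and 8 of 8 members were called with HK, 314 genes for treatment by sex and 225 for treatment by batch. In that fit of 30096 genes the prior degrees of freedom of edgeR's dispersions became infinite (4.18 with the filter), so the spread of single genes between mice no longer entered. With at least 5 counts in total, or with edgeR's newer quasi-dispersions and no filter, both added after seeing the data, 0 genes were called and 2 members had an unadjusted p under 0.05. The batch call held in 209 of 216 combinations of a member with a fit. These include Fosb and Egr3, which passed the filter mainly through batch 2. Genes called between batches numbered 4720 over all mice, 2034 in untreated, 1428 in HK-treated, 1456 in female and 3461 in male mice alone (10 mice each). The cause of these differences was not tested. Pairs of members that vary together numbered 10 without HK-treated Male_3, and 17 with DESeq2 size factors or a prior count of 0.5.

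Pairing by replicate number was not shown: of 10 same-numbered pairs 4 had a correlation of deviations over 0.1, and 11 of 20 mice correlated best with their own number. In batch 1 the pairs Female_1 and Female_2 mirror each other (r = 0.21 for each), as do Male_1 and Male_2 (r = -0.47 for each). The pairs are thus not all separate, and the matches to be had without pairing were not computed. With the replicate block the members' median was 0.54 and 0 genes were called. Jund and Egr2 had too few counts to be tested, and the cause was not tested.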
